A study of Mus musculus with 18 samples.

Results

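The retinoblastoma pocket proteins, the MuvB core and its partners Mybl2 and Foxm1 were followed in RNA-seq of primary mouse embryonic fibroblasts (MEFs). They are 10 genes of the 51912 in the table of expected counts, chosen by symbol: the pocket protein genes Rb1, Rbl1 (p107) and Rbl2 (p130), the MuvB genes Lin9, Lin37, Lin52, Lin54 and Rbbp4, and the transcription factor genes Mybl2 (B-Myb) and Foxm1. All 10 passed the filter on low counts. In quiescent or arrested cells, RBL2 or RBL1 joins E2F4 or E2F5, a DP partner and the MuvB core in the DREAM complex, which keeps cell cycle genes silent. When cyclin-dependent kinases phosphorylate the pocket proteins, MuvB is released, binds B-Myb in S phase and then recruits FOXM1, and the same core now activates the genes of mitosis. TRP53 acts on this switch through its target Cdkn1a (p21), an inhibitor of these kinases, and dividing fibroblasts pass through both states of the core.

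The cells were isolated from individual mid-gestation C57BL/6 embryos after the head, heart and liver had been removed, and were used at passage 1 in 15% serum and 5% oxygen. The 6 genotypes, with 3 libraries each, combined Pole4+/+ or Pole4-/- with Trp53+/+, Trp53+/- or Trp53-/-. Pole4 encodes an accessory subunit of DNA polymerase epsilon and Trp53 the tumor suppressor p53, and both null alleles were present in every cell of the embryo and not only in fibroblasts. The question was how the genes of the pocket protein and MuvB system stood when Trp53 was lost in cells that lack Pole4 and in cells that keep it. The p-values measure the spread between libraries of a genotype. That the 3 libraries of a genotype came from 3 embryos is not stated in the sources used here, so this spread may be technical in part.

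Library totals ran from 9535971 to 35319918 counts, and ribosomal RNA took between 0.968% and 42.5% of them. Levels are TMM-scaled CPM, that is, counts relative to the scaled total of the library. Trp53 followed the labels, at 86.6 to 96 CPM in Pole4+/+ Trp53+/+ libraries and 8.65 to 12 CPM in Pole4+/+ Trp53-/-, and at 64.2 to 72.6 and 10 to 12.1 CPM in the matching Pole4-/- groups. Pole4 stood at 16.2 to 22.9 CPM in Pole4+/+ Trp53+/+ libraries and at 9.26 to 11.2 CPM in Pole4-/- Trp53+/+ libraries, so its row was lower in the null cells but kept reads there. By Xist and 4 Y-linked genes, 7 of the 18 libraries were male. All 3 Pole4+/+ Trp53+/+ libraries and all 3 Pole4+/+ Trp53-/- libraries were female, while all 3 Pole4+/+ Trp53+/- libraries were male and Pole4-/- Trp53+/+ had 1 female and 2 male libraries. One library stood apart: Pole4+/+ Trp53-/- replicate 1 held Pole4 at 14.2 CPM beside 25.4 and 26.4 in its group, and Y-linked genes at 7.19 CPM, where the other female libraries held at most 0.302 and the male ones at least 166. Its Trp53 level, 11.5 CPM, was that of its group, whether it holds RNA of another culture was not tested, and the main counts are given with and without it. Fibroblast markers summed to between 13700 and 30900 CPM in all libraries, those of macrophages to at most 61.1 CPM and of endothelium to at most 6.56 CPM. Skeletal muscle, epithelial and neuronal markers reached at most 83.1, 42.5 and 147 CPM, and erythroid markers 2.26 CPM.

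The promoters of 3 of the 10 genes are shown: those of Rbl1 and Rbl2, which moved in opposite directions, and that of Mybl2, which moved the most. E2F sites and CHR elements are the letters through which DREAM and its activating counterpart are usually recruited. Those searched, on both strands, were TTTGGCGC, TTTCCCGC, TTTCGCGC and TTTGCCGC for E2F, TTTGAA and TTCGAA for the cell cycle genes homology region (CHR) that LIN54 binds, and CCAAT. The sequences are from RefSeq (GRCm38.p6), read 5′ to 3′ on the strand of the gene, and cover the 250 bases before the transcription start, with matches in capitals.
Rbl1, chr2:157204535-157204784, minus strand: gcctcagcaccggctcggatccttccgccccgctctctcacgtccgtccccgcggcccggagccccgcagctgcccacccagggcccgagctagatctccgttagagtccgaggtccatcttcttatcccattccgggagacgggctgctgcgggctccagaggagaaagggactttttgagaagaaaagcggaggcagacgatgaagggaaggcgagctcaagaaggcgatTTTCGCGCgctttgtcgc
Rbl2, chr8:91069807-91070056, plus strand: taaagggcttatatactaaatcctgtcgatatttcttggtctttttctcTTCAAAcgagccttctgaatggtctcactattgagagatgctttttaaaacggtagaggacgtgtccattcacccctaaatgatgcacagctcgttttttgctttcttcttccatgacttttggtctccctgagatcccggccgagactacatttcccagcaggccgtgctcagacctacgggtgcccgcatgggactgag
Mybl2, chr2:163054385-163054634, plus strand: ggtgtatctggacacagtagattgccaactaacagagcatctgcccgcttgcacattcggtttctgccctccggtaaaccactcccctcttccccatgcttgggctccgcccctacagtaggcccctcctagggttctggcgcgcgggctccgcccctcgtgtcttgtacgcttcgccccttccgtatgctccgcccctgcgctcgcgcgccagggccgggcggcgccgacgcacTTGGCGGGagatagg
In Rbl1 the capitals mark TTTCGCGC, from 18 to 11 bases before the start. In Rbl2 they mark TTCAAA, the CHR letters TTTGAA read on the other strand, from 201 to 196 bases before the start. The Mybl2 window held none of the motifs first searched. Its capitals mark TTGGCGGG, from 15 to 8 bases before the start, a motif that was added after the sequences had been seen.

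RefSeq windows of 300 bases, from 250 before to 50 after the start, were matched for 7 of the 10 genes, in 8 windows. Rb1, Lin9 and Foxm1 had no window. An E2F motif stood in the windows of Rbl1 and Lin52, the latter as TTTCCCGC, from 27 to 20 bases before the start. Such a motif was present in 2.26% of all 32851 windows. A CHR match stood in the windows of Rbl2, Lin37 and Lin54, against 19.2% of all windows, and a CCAAT in those of Lin37, Lin52, Lin54 and Rbbp4, against 37.4%. The added TTGGCGGG was found in Mybl2 and in 1 of the 2 Lin54 windows, and in 0.974% of all windows. These are matches of letters in a window and not measured binding sites.

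In Pole4-/- MEFs, loss of both Trp53 alleles was accompanied by lower Rb1 and Rbl2 and by higher Rbl1, Lin9, Lin54, Rbbp4, Mybl2 and Foxm1, while Lin37 and Lin52 did not pass the test. Thus 8 of the 10 genes were called by edgeR's quasi-likelihood test at a Benjamini-Hochberg adjusted p under 0.05, 6 higher and 2 lower, in a comparison in which 42.6% of all 15710 genes tested were called, 21.8% higher and 20.8% lower. Their median log2 fold change was 0.85, and that of all genes tested was -0.02. The libraries did not overlap for 9 of the 10 genes, against 57% of all genes. In Pole4+/+ MEFs, 1 of the 10 was called, Rb1, which was lower, against 4.6% of all genes (2.37% lower), and the median was 0.29, against 0.03 for all genes. At an unadjusted p under 0.05 there were 7 genes in Pole4+/+, against 19% of all genes, and the libraries did not overlap for 2, Lin9 and Rb1, against 16.5% of all genes. Without Pole4+/+ Trp53-/- replicate 1, 7 of the 10 were called in Pole4+/+, 6 higher and Rb1 lower, against 16.9% of all genes. With other scaling factors in place of TMM, library totals and upper quartiles gave 0 and 2 calls in Pole4+/+, the latter 1 higher and 1 lower.

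**Figure D1:**
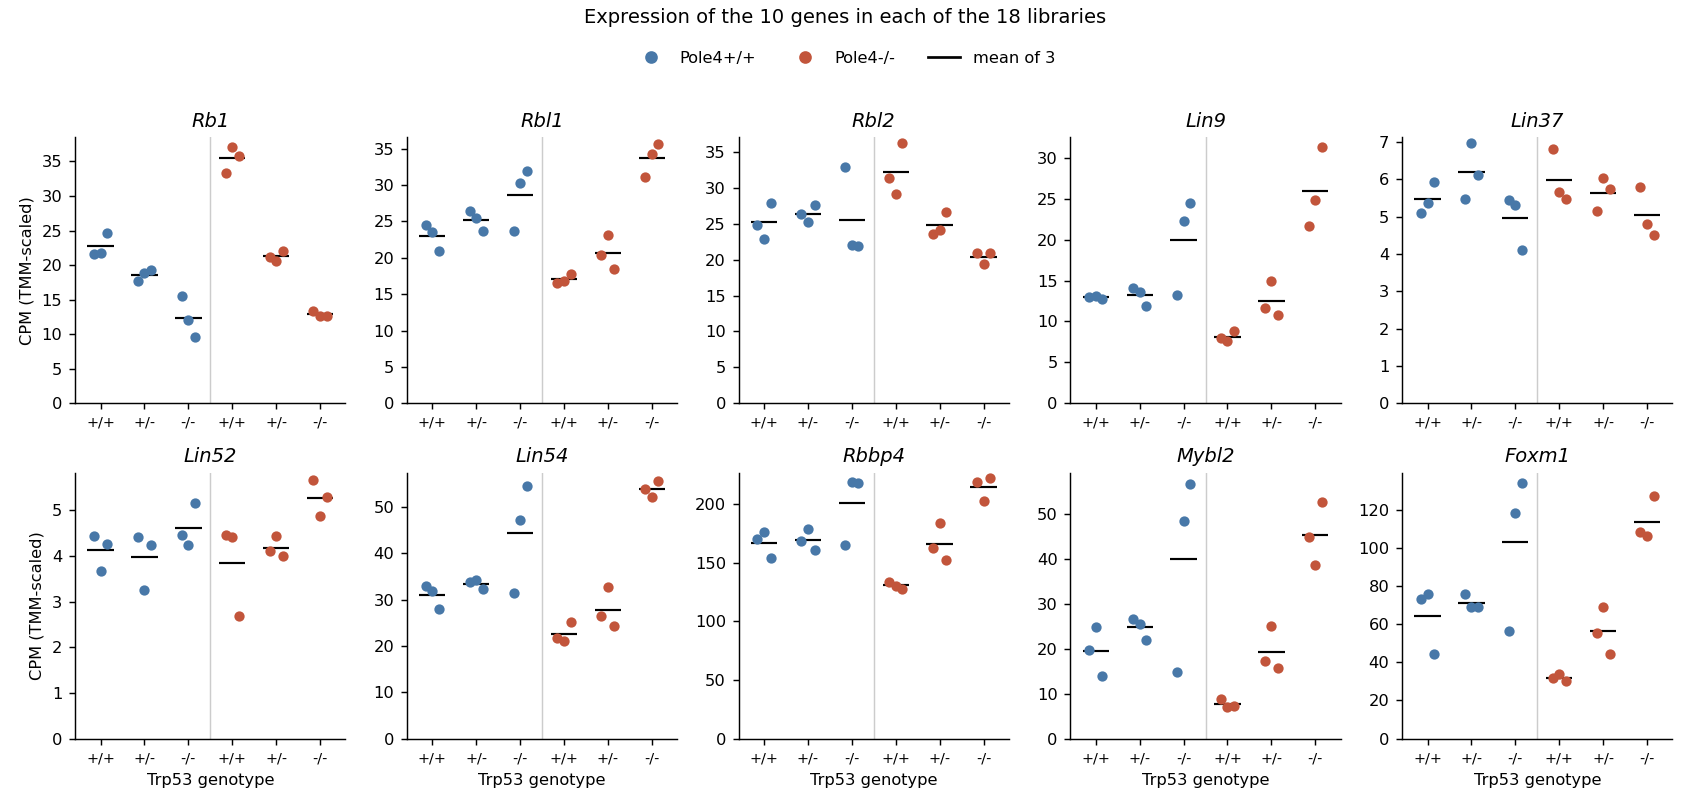
Expression of the 10 genes in each of the 18 libraries, as TMM-scaled CPM on a vertical axis that starts at 0, with 1 panel per gene. Points are libraries, colours the Pole4 genotype and bars the mean of 3 libraries, with the Trp53 genotype on the horizontal axis. Mybl2 runs from 7.09 to 56.6 CPM, and Pole4+/+ Trp53-/- replicate 1 lies at 14.8 CPM, below both other libraries of its group.

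Rb1 encodes the retinoblastoma protein, which binds the activating E2F proteins and holds cells in G1. The gene (ENSMUSG00000022105, GRCm38 chr14:73183673-73325822) read 33.4, 37.1 and 35.8 CPM in Pole4-/- Trp53+/+ libraries, 21.2, 20.6 and 22.1 CPM in Pole4-/- Trp53+/- libraries and 13.4, 12.7 and 12.7 CPM in Pole4-/- Trp53-/- libraries. The 3 genotypes did not overlap, with the highest level in the cells that keep Trp53. In Pole4+/+ cells Rb1 read 21.6, 21.8 and 24.7 CPM with both Trp53 alleles, 17.7, 18.8 and 19.3 CPM with 1, and 15.5, 12 and 9.61 CPM with none. Here too no library of one genotype reached into the next, although the middle genotype was all male and the others all female. Between Trp53-/- and Trp53+/+, Rb1 fell by 1.45 on the log2 scale (SE 0.128, 2.74-fold lower, adjusted p = 2.01e-06) in Pole4-/- and by 0.86 (SE 0.126, 1.81-fold lower, adjusted p = 0.000971) in Pole4+/+. Rb1 was the sole member that was called in both Pole4 backgrounds, and it was called in both without any 1 library. It shares 488 exon bases with Rcbtb2 and 408 with Lpar6 on the opposite strand, and the library kit is not described as keeping strand. Neither neighbour was called in either comparison, with Rcbtb2 at -0.11 (adjusted p = 0.379) in Pole4-/-.

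Rbl1 encodes p107, the pocket protein of cycling cells and itself a target of E2F. It (ENSMUSG00000027641, GRCm38 chr2:157145893-157204534) read 16.6, 16.8 and 17.8 CPM in Pole4-/- Trp53+/+ libraries and 31.1, 34.3 and 35.6 CPM in Pole4-/- Trp53-/- libraries. Pole4-/- Trp53+/- libraries lay between, at 20.4, 23.1 and 18.5 CPM, with no overlap on either side. The difference between the homozygous genotypes was 0.98 (SE 0.117, 1.97-fold, adjusted p = 2.07e-05). In Pole4+/+ cells Rbl1 read 24.5, 23.6 and 21 CPM with Trp53 and 23.7, 30.3 and 32 CPM without, groups that overlapped through replicate 1 of the latter (0.31, SE 0.114, adjusted p = 0.134). Without that library the difference was 0.40 with adjusted p = 0.0128.

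Rbl2 encodes p130, the pocket protein that accumulates in quiescent cells and the usual one in DREAM. It (ENSMUSG00000031666, GRCm38 chr8:91070057-91123844) read 31.4, 29.1 and 36.2 CPM in Pole4-/- Trp53+/+ libraries, 23.6, 24.2 and 26.7 CPM in Pole4-/- Trp53+/- libraries and 20.9, 19.4 and 21 CPM in Pole4-/- Trp53-/- libraries. Its order was the reverse of that of Rbl1, and the 3 genotypes again did not overlap. Rbl2 fell by 0.66 on the log2 scale (SE 0.14, 1.57-fold lower, adjusted p = 0.00169). In Pole4+/+ it read 24.8, 22.9 and 27.9 CPM with Trp53 and 32.9, 22 and 21.9 CPM without, where replicate 1 was the high library. The fitted difference was 0.03 (adjusted p = 0.948), with a 95% interval from -0.27 to 0.33. Without replicate 1 of Pole4+/+ Trp53-/- it was -0.23, which was not called. Rbl2 shares 693 exon bases with Aktip on the opposite strand, which was lower in the Pole4-/- comparison too (-0.38, adjusted p = 0.038), and the part of shared reads in the Rbl2 value was not tested.

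Per kilobase of exon, the ratio of Rbl1 to Rbl2 within a library set p107 against p130. The ratio was 0.667, 0.73 and 0.619 in Pole4-/- Trp53+/+, 1.09, 1.21 and 0.871 in Pole4-/- Trp53+/- and 1.87, 2.23 and 2.14 in Pole4-/- Trp53-/- libraries. Thus in the homozygous Pole4-/- genotypes Rbl2 was the more abundant transcript with Trp53 and Rbl1 the more abundant without it, while heterozygous libraries lay on both sides of 1. The place of the heterozygotes rests on the exon lengths used, since in CPM with no length their ratios were 0.865, 0.957 and 0.691. In Pole4+/+ the ratio was 1.25, 1.3 and 0.951 with both Trp53 alleles, 1.26, 1.27 and 1.08 with 1 and 0.909, 1.74 and 1.84 with none, so 2 of the 3 Trp53-/- libraries lay above all others with Pole4 and replicate 1 lay below them.

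The MuvB core is made of LIN9, LIN37, LIN52, LIN54 and the histone chaperone RBBP4. LIN54 carries the domain that contacts the CHR and LIN52 the site at which DYRK1A phosphorylation favours binding of a pocket protein over B-Myb, while LIN9 scaffolds the core and LIN37 is needed for repression by DREAM. The subunit transcripts did not move together. Lin9 (ENSMUSG00000058729, GRCm38 chr1:180641150-180690694) rose from 8.01, 7.59 and 8.83 CPM in Pole4-/- Trp53+/+ to 21.7, 24.9 and 31.3 CPM in Pole4-/- Trp53-/- libraries. The groups stood far apart, and the difference of 1.68 (SE 0.202, 3.2-fold, adjusted p = 2.14e-05) exceeded that of every other core gene in this comparison. Lin9 read 13, 13.1 and 12.7 CPM in Pole4+/+ Trp53+/+ libraries and 13.2, 22.3 and 24.5 CPM in Pole4+/+ Trp53-/-. It was the 1 member whose Trp53-/- libraries all lay above the Trp53+/+ ones in Pole4+/+, yet it did not pass the test (0.62, SE 0.192, adjusted p = 0.0784). Without replicate 1 of the Trp53-/- group it did, at 0.82 with adjusted p = 0.00218.

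Lin54 (ENSMUSG00000035310, GRCm38 chr5:100441918-100500639) rose from 21.7, 21 and 25.1 CPM in Pole4-/- Trp53+/+ to 53.8, 52.2 and 55.6 CPM in Pole4-/- Trp53-/- libraries (1.26, SE 0.161, 2.39-fold, adjusted p = 3.51e-05). In Pole4+/+ it read 33, 31.9 and 28 CPM with Trp53 and 31.4, 47.1 and 54.5 CPM without. Replicate 1 of Trp53-/- was again inside the range of the Trp53+/+ libraries, and the difference was 0.51 (adjusted p = 0.0739) with it and 0.68 (adjusted p = 0.00164) without it. Without replicate 3 it was 0.32 (adjusted p = 0.261). Rbbp4 (ENSMUSG00000057236, GRCm38 chr4:129307100-129335370) rose from 134, 130 and 128 CPM to 219, 203 and 222 CPM on Trp53 loss in Pole4-/- (0.71, SE 0.106, 1.64-fold, adjusted p = 0.000115). With Pole4 it read 170, 176 and 154 CPM with Trp53 and 165, 219 and 218 CPM without (0.27, adjusted p = 0.166), and 0.36 (adjusted p = 0.00883) without replicate 1 of Trp53-/-. Its overlapping neighbours on the opposite strand, Sync and Gm26722, were lower in the Pole4-/- comparison, at -2.14 and -1.93, the opposite of Rbbp4.

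Lin37 and Lin52 were the low members, with 41 to 207 and 20 to 167 counts a library. Lin37 (ENSMUSG00000036845, GRCm38 chr7:30555441-30559838) read 6.81, 5.67 and 5.48 CPM in Pole4-/- Trp53+/+ libraries and 5.8, 4.81 and 4.51 CPM in Pole4-/- Trp53-/- libraries. These overlap, and the difference was -0.26 (adjusted p = 0.21), with a 95% interval from -0.60 to 0.09. Lin52 (ENSMUSG00000085793, GRCm38 chr12:84451422-84546145) read 4.45, 4.42 and 2.68 CPM and 5.67, 4.87 and 5.3 CPM in the same genotypes. All Trp53-/- libraries lay above the others, but the difference of 0.43 had an adjusted p of 0.0782. In Pole4+/+ Lin37 differed by -0.13 (adjusted p = 0.836) and Lin52 by 0.15 (adjusted p = 0.728).

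Mybl2 encodes B-Myb, which takes the place of the pocket protein on MuvB and is itself repressed through E2F sites in resting cells. It (ENSMUSG00000017861, GRCm38 chr2:163054687-163084688) read 8.76, 7.09 and 7.22 CPM in Pole4-/- Trp53+/+ libraries, 17.3, 25.1 and 15.6 CPM in Pole4-/- Trp53+/- libraries and 44.8, 38.6 and 52.6 CPM in Pole4-/- Trp53-/- libraries. The 3 genotypes did not overlap, and the 2.54 difference between the homozygous ones (SE 0.385, 5.83-fold, adjusted p = 0.000161) was above those of the 9 other genes. In Pole4+/+ Mybl2 read 19.7, 24.8 and 14 CPM with both Trp53 alleles, 26.6, 25.6 and 22 CPM with 1 and 14.8, 48.4 and 56.6 CPM with none. Libraries 2 and 3 of Trp53-/- were above all others with Pole4 and library 1 was among the lowest. The difference, 1.02 (SE 0.355, 95% interval 0.25 to 1.80), had an adjusted p of 0.114, and it was 1.40 (adjusted p = 0.000991) without library 1 and 0.67 (adjusted p = 0.363) without library 3.

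Foxm1 encodes the forkhead factor that MuvB and B-Myb bring to the genes of G2 and mitosis. It (ENSMUSG00000001517, GRCm38 chr6:128362967-128376146) read 31.7, 33.8 and 30.4 CPM in Pole4-/- Trp53+/+ libraries, 55.2, 68.8 and 44.5 CPM in Pole4-/- Trp53+/- libraries and 108, 106 and 127 CPM in Pole4-/- Trp53-/- libraries. The steps did not overlap, and the total difference was 1.83 (SE 0.268, 3.56-fold, adjusted p = 0.000117). In Pole4+/+ it read 72.9, 75.5 and 44.4 CPM, 75.8, 68.8 and 69 CPM, and 56.2, 118 and 134 CPM with 2, 1 and no Trp53 alleles. The difference between the last and the first was 0.67 (SE 0.257, adjusted p = 0.155), and it was 0.94 (adjusted p = 0.00465) without library 1 of Trp53-/- and 0.42 (adjusted p = 0.453) without library 3. Foxm1 shares 144 exon bases with Tex52 on the same strand, which held 50 counts in all libraries together, and its own counts were not whole in 94.4% of libraries, by a fraction of at most 0.36. Rhno1, whose start lies 56 bases from that of Foxm1 on the opposite strand, rose by less in the same comparison (0.59, adjusted p = 0.00163).

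**Figure D2:**
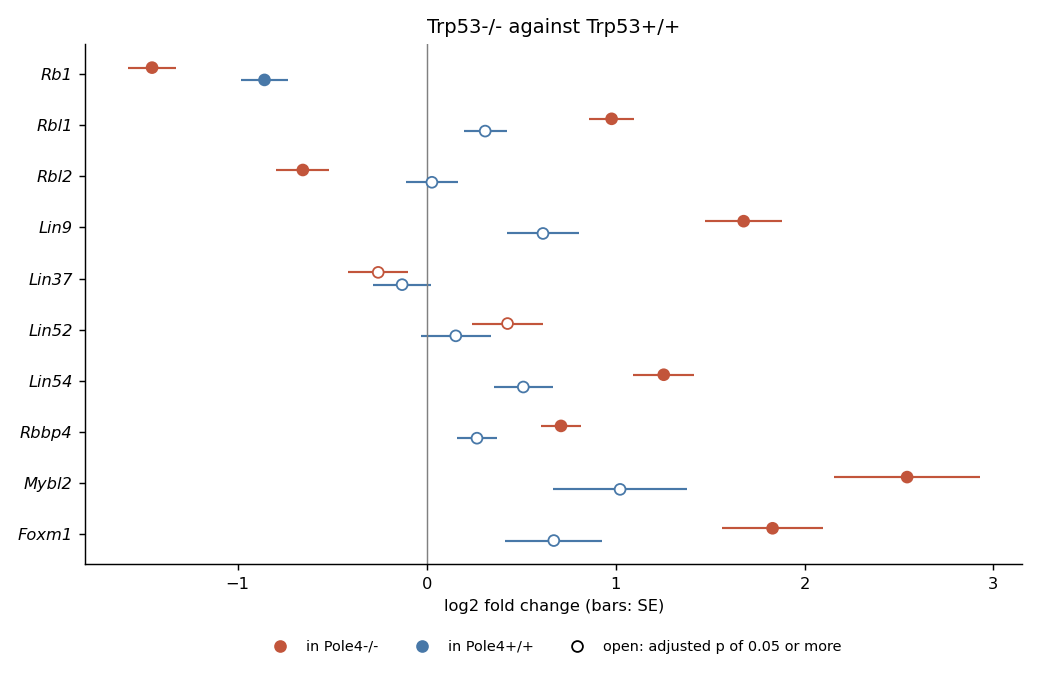
The log2 fold change of each of the 10 genes between Trp53-/- and Trp53+/+, in Pole4-/- and in Pole4+/+ (bars: SE; filled: adjusted p under 0.05 in edgeR). In Pole4-/- the values run from -1.45 for Rb1 to 2.54 for Mybl2 with 8 filled points, and in Pole4+/+ from -0.86 to 1.02 with 1 filled point.

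Whether the effect of Trp53 loss depended on Pole4 was asked with an interaction term. None of the 10 genes was called by edgeR, where 0.331% of all genes were, although 8 had an unadjusted p under 0.05, against 28.3% of all genes, and DESeq2 and voom called 8 each, where they called 11.4% and 7.59% of all genes. The interaction was 1.52 for Mybl2 (SE 0.514, adjusted p = 0.0896, 95% interval 0.40 to 2.64), 1.16 for Foxm1 (adjusted p = 0.0784) and 1.06 for Lin9 (adjusted p = 0.0572). Among the pocket proteins it was 0.67 for Rbl1 (adjusted p = 0.0524), -0.68 for Rbl2 (adjusted p = 0.0654) and -0.59 for Rb1 (adjusted p = 0.0698). The sign was thus that of the change in Pole4-/- for each of these 6 genes. The count depended on single libraries of the Pole4+/+ groups: it was 8 without Pole4+/+ Trp53-/- replicate 3, 6 without replicate 2, 1 without Pole4+/+ Trp53+/+ replicate 3 and 0 without Pole4+/+ Trp53-/- replicate 1. The share of all genes called moved beside it, to 20.1%, 12.3%, 2.52% and 1.07% in that order. Without Pole4+/+ Trp53-/- replicate 1 the interaction was -0.44 for Rbl2 and -0.39 for Rb1.

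Loss of 1 Trp53 allele in Pole4-/- cells was compared next. Of the 10 genes, Rb1 was called (-0.73, SE 0.124, adjusted p = 0.00902), against 5.12% of all genes (2.16% lower), and 7 had an unadjusted p under 0.05, against 26% of all genes. Mybl2 differed by 1.31 (adjusted p = 0.0556), Foxm1 by 0.81 (adjusted p = 0.0792), Lin9 by 0.62 (adjusted p = 0.0777), Rbbp4 by 0.35 (adjusted p = 0.0645) and Rbl2 by -0.37 (adjusted p = 0.109). No library of the heterozygous genotype overlapped with the Trp53+/+ libraries for 7 genes, against 40.3% of all genes. The single call was lost without Pole4-/- Trp53+/- replicate 2 and without Pole4-/- Trp53+/+ replicate 2 or 3, and 2 were called without Pole4-/- Trp53+/- replicate 3. Scaling by library totals alone, which moved the median of all genes by 0.29, gave 6 higher and 0 lower. In Pole4+/+ cells 0 of the 10 were called by edgeR and DESeq2 and 1 by voom, 1 had an unadjusted p under 0.05 (10.2% of all genes did), and 0.904% of all genes were called. These are 3 male against 3 female libraries, so sex and the lost allele cannot be told apart here. There Rb1 stood at -0.29 (SE 0.125, adjusted p = 0.43).

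From the heterozygous to the null genotype in Pole4-/- cells, 7 of the 10 genes were called, 6 higher and 1 lower, against 12.5% of all genes (6.58% higher and 5.91% lower). Those higher were Rbl1 at 0.70 (adjusted p = 0.0016), Lin9 at 1.06 (adjusted p = 0.00313), Lin54 at 0.95 (adjusted p = 0.00185), Rbbp4 at 0.37 (adjusted p = 0.0326), Mybl2 at 1.23 (SE 0.355, adjusted p = 0.0348) and Foxm1 at 1.02 (adjusted p = 0.0199). Rb1 was lower again, at -0.72 (adjusted p = 0.00248). Rbl2 differed by -0.28 and was not called (adjusted p = 0.193). The Mybl2 call was lost in 5 of the 6 fits that left out a library (adjusted p up to 0.145), that of Rbbp4 in 4 and that of Foxm1 in 3. Ribosomal RNA took 3.75% to 15.5% of the heterozygous and 24.7% to 30.04% of the null libraries, and fibroblast markers summed to 20500 to 26000 and 13700 to 16500 CPM; their part in the result was not tested. This comparison and that of the heterozygotes share the Pole4-/- Trp53+/- libraries, and the difference of the steps was not tested. The count was 4 without Pole4-/- Trp53+/- replicate 1 or 3 or Pole4-/- Trp53-/- replicate 3, and library totals alone gave 2 higher and 1 lower. In Pole4+/+ cells edgeR called 0 of the 10 at this step, DESeq2 1 and voom 6, 4 had an unadjusted p under 0.05 (9.31% of all genes did), and 0.579% of all genes were called, again with sex differing completely between the groups. Rb1 was at -0.57 (adjusted p = 0.0583). Without Pole4+/+ Trp53-/- replicate 1, 6 of the 10 were called. The share of all genes in that fit, and in the DESeq2 and voom fits of this step, is not given here. When Trp53-/- was compared with Trp53+/+ in Pole4+/+, leaving out that library moved the share from 4.6% to 16.9%.

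Loss of Pole4 in cells with intact Trp53 was accompanied by higher Rb1 and by lower Rbl1 and Foxm1. These 3 of the 10 genes were called, against 3.98% of all genes (1.29% higher and 2.7% lower), and 8 had an unadjusted p under 0.05, against 26.1% of all genes. Rb1 was 1.56-fold higher (0.64, SE 0.125, adjusted p = 0.0203), Rbl1 1.35-fold lower (-0.44, SE 0.117, adjusted p = 0.0486) and Foxm1 2.01-fold lower (-1.01, SE 0.264, adjusted p = 0.0462). Mybl2, at -1.33 (SE 0.378), had the lowest value of the 10 but an adjusted p of 0.0597. Lin9 stood at -0.68 (adjusted p = 0.0655), Lin54 at -0.46 (adjusted p = 0.098), Rbbp4 at -0.35 (adjusted p = 0.0673) and Rbl2 at 0.35 (adjusted p = 0.129). For 8 genes the libraries did not overlap, 2 above and 6 below, against 41.1% of all genes. The median of the 10 was -0.39, against 0.01 for all genes. The Pole4-/- Trp53+/+ libraries are also the reference of the Trp53 comparison above, so these values and those are not independent of each other.

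Sex differed between the genotypes compared, since the Pole4+/+ Trp53+/+ libraries were all female. With log2 Xist as a covariate in edgeR none of the 10 was called, and 0% of all genes were. The values were 0.63 for Rb1 (adjusted p = 0.137), -0.46 for Rbl1 (adjusted p = 0.177) and -1.003 for Foxm1 (adjusted p = 0.189). The female Pole4-/- Trp53+/+ library, replicate 1, held Rb1 at 33.4, Rbl1 at 16.6 and Foxm1 at 31.7 CPM. Each lay outside the range of the 3 female Pole4+/+ Trp53+/+ libraries (21.6 to 24.7, 21 to 24.5 and 44.4 to 75.5 CPM). This is 1 library, read for genes that had been called, and the part of sex was not tested. The count of calls was 0 without Pole4-/- Trp53+/+ replicate 2 or 3 or Pole4+/+ Trp53+/+ replicate 1 or 2, and 1 without Pole4-/- Trp53+/+ replicate 1. It was 5 without Pole4+/+ Trp53+/+ replicate 3, where 4.93% of all genes were called. The share of all genes in the other omissions is not given here. Library totals alone gave 0 higher and 6 lower, with the median of all genes at -0.28. Fibroblast markers summed to 16300 to 22000 CPM in Pole4+/+ Trp53+/+ and, without overlap, to 24900 to 30900 CPM in Pole4-/- Trp53+/+ libraries. Epithelial markers summed to 21.6 to 34.7 CPM in the former and, again without overlap, to 10.6 to 16.9 CPM in the latter. All 10 macrophage markers had negative log2 fold changes (median -1.55), but none was called. Their sums overlapped, at 6.19 to 61.1 and 9.84 to 26.1 CPM in the same order. The part of these markers in this result and in that of the target lists was not tested.

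In Trp53+/- and in Trp53-/- cells, Pole4 loss gave no call among the 10 genes by edgeR, DESeq2 or voom, with 1 unadjusted p under 0.05 in each (5.51% and 10.4% of all genes) and 0.00637% of all genes called in each. Their log2 differences ran from -0.36 to 0.20 in Trp53+/- and from -0.33 to 0.39 in Trp53-/- cells. Sex was not balanced in either comparison. The Pole4+/+ libraries were 3 male in Trp53+/- and 3 female in Trp53-/-, while each Pole4-/- group had 2 female and 1 male. The Trp53-/- comparison also holds Pole4+/+ Trp53-/- replicate 1, the library that stood apart. The difference of the Pole4 effect between Trp53+/+ and Trp53-/- cells is the same quantity as the interaction above.

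**Figure D3:**
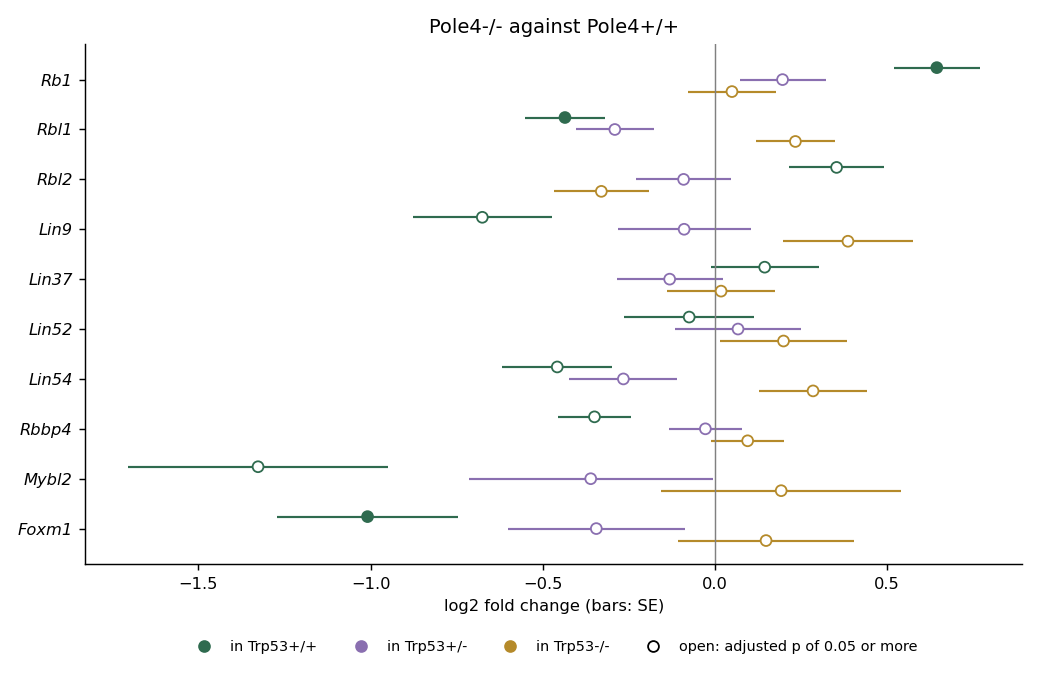
The log2 fold change of each of the 10 genes between Pole4-/- and Pole4+/+, in Trp53+/+, Trp53+/- and Trp53-/- cells (bars: SE; filled: adjusted p under 0.05 in edgeR). In Trp53+/+ cells the values run from -1.33 for Mybl2 to 0.64 for Rb1, with 3 filled points, and in the other cells from -0.36 to 0.39 with none.

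The genes differed in level as well as in range. Per kilobase of the union of their exons, Pole4+/+ Trp53+/+ cells held Rbbp4 at 19.1 and Foxm1 at 11.2 CPM, above Lin54 at 5.32 and Mybl2 at 4.21. Lin37 (3.94), Rbl1 (3.85), Rb1 (3.77) and Rbl2 (3.34) came next and lay close together, and their order changed when the longest transcript was used in place of the union. Lin9 (1.79) and Lin52 (1.33) were the lowest of the 10 on this scale. In Pole4-/- Trp53+/+ cells Rb1 (5.89) stood above Foxm1 (5.55), and Rbl2 (4.27) above Rbl1 (2.85) and Mybl2 (1.66). In Pole4-/- Trp53-/- cells Mybl2 (9.79) and Lin54 (9.25) followed Rbbp4 (24.5) and Foxm1 (19.8), and Rbl2 (2.7), Rb1 (2.15) and Lin52 (1.7) closed the order. Between the lowest and the highest library of the 18, CPM spanned 7.99-fold for Mybl2, 4.42-fold for Foxm1, 4.13-fold for Lin9 and 3.86-fold for Rb1, and 1.7-fold for Lin37 at the narrow end. In bulk RNA, a lower share of cells in a phase and less RNA per cell cannot be told apart.

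E2F4, E2F5 and the DP proteins complete DREAM. In Pole4-/-, Trp53 loss was accompanied by higher E2f4 (25.21 to 37.33 CPM, 0.56, adjusted p = 0.00176), E2f5 (8.412 to 11.8 CPM, 0.50, adjusted p = 0.00599) and Tfdp1 (89.7 to 154.3 CPM, 0.78, adjusted p = 0.000625). Tfdp2 was at 0.19 (adjusted p = 0.093). In Pole4+/+ 0 of the 4 were called, and without Pole4+/+ Trp53-/- replicate 1 E2f4 and Tfdp1 were higher. Of the paralogs, Mybl1 (A-Myb) moved against Mybl2: it was lower without Trp53 in Pole4-/- (23.28 to 13.69 CPM, -0.77, adjusted p = 0.00036) and in Pole4+/+ (19.93 to 11.35 CPM, -0.82, adjusted p = 0.00205). Myb itself was called higher in Pole4-/- (adjusted p = 0.0281), on 1, 2 and 0 counts with and 13, 9 and 8 counts without Trp53, and was not called in Pole4+/+ (-0.26, adjusted p = 0.917). Rbbp7, the close homolog of Rbbp4, was higher in Pole4-/- (163.8 to 282.8 CPM, 0.79, adjusted p = 8.31e-05) and not called in Pole4+/+ (0.12, adjusted p = 0.643). RBBP4 also serves in CAF-1, PRC2, NuRD and SIN3 complexes. Of 11 genes of these complexes, 9 were higher in Pole4-/-, where 21.8% of all genes were, and 2 in Pole4+/+, where 2.23% were. Without Pole4+/+ Trp53-/- replicate 1, 6 were higher there, against 8.58% of all genes. Among them Chaf1b, of CAF-1, stood at 1.79 and 0.83 in the respective backgrounds, and Ezh2, the PRC2 methyltransferase, at 1.36 in Pole4-/-.

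The state of the pocket proteins is set by phosphorylation, which RNA does not show. Of 19 genes for the cyclins, kinases, inhibitors and phosphatases that act on them, 10 were higher and 4 lower on Trp53 loss in Pole4-/-, where 21.8% of all genes were higher and 20.8% lower. In Pole4+/+, 1 was higher and 2 lower, against 2.23% and 2.37% of all genes. Without replicate 1 of Trp53-/- there were 4 and 2, against 8.58% and 8.34%. Cdkn1a, the inhibitor through which TRP53 acts on cyclin-dependent kinases, read 342, 361 and 362 CPM in Pole4-/- Trp53+/+ libraries and 8.8, 6.07 and 5.17 CPM in Pole4-/- Trp53-/- libraries. It fell by 5.72 on the log2 scale there and by 4.59 in Pole4+/+, where it read 243, 231 and 251 CPM with Trp53 and 11.8, 12 and 5.66 CPM without. In replicate 1 of Pole4+/+ Trp53-/-, Cdkn1a was thus low as in the rest of its group. Mybl2 and Foxm1 there lay below both other libraries of the group. Ccnd2, a D-type cyclin, was lower in both backgrounds (1377 to 686.8 CPM, adjusted p = 5.31e-05, and 1097 to 638.9 CPM, adjusted p = 0.00331). The cyclin E genes Ccne1 (0.88) and Ccne2 (1.43), their kinase Cdk2 (0.90) and Dyrk1a (65.93 to 92.81 CPM, 0.50, adjusted p = 0.000625), the kinase of LIN52, were higher in Pole4-/-. Cdkn2d, an inhibitor of CDK4 and CDK6, was higher in both backgrounds (0.50 and 0.53, the latter with adjusted p = 0.0315). Cdkn2a differed by 0.45 (adjusted p = 0.506) in Pole4-/- and by 1.59 (adjusted p = 0.0893) in Pole4+/+. The latter rested on Pole4+/+ Trp53-/- replicate 1, at 143 CPM beside 36.9 and 21.1 CPM in its group, and without that library it was 0.37 (adjusted p = 0.421).

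Targets of the complexes were read in lists of 48 genes each, which were drawn up with earlier results of these data known. The list of genes that DREAM binds through E2F sites, which act in G1 and S phase, had 47 genes higher and 0 lower on Trp53 loss in Pole4-/-, with a median log2 fold change of 1.57, where 21.8% of all genes were higher and their median was -0.02. The 3 with the highest values were Exo1, a nuclease of mismatch repair and end resection (7.073 to 30.79 CPM, 2.12, adjusted p = 2.48e-05), Cdc6, which loads the replicative helicase (5.98 to 24.48 CPM, 2.03), and E2f7, an E2F repressor (15.91 to 64.62 CPM, 2.02). The lowest were E2f1 at 0.23 (adjusted p = 0.135), which was the uncalled gene, and E2f3 at 0.38 (adjusted p = 0.0401). In Pole4+/+ 8 of the 48 were higher, against 2.23% of all genes, with a median of 0.58. There Exo1 was at 0.86 (adjusted p = 0.0538), Cdc6 at 0.64 and E2f7 at 0.73. Without Pole4+/+ Trp53-/- replicate 1, 46 were called, against 16.9% of all genes, and without any 1 of the 5 other libraries of that comparison 1 or 2.

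The list of CHR genes, which DREAM represses and B-Myb and FOXM1 activate in G2 and mitosis, also had 47 higher and 0 lower in Pole4-/-, against 21.8% and 20.8% of all genes, with a median of 1.61. Its highest values were those of Sgo1, the protector of centromeric cohesion (9.638 to 38.54 CPM, 1.99, adjusted p = 5.25e-06), Cdca8, of the chromosomal passenger complex (13.78 to 52.53 CPM, 1.92), and the cyclin gene Ccna2 (51.97 to 192.7 CPM, 1.89). Ccnb2 (1.35) and Incenp (1.38) were among the lowest, and the lowest was Gtse1, a gene of G2 and S phase whose product binds p53. Gtse1 was the exception in the list: it read 38.28 CPM with and 27.96 without Trp53 in Pole4-/- (-0.45, adjusted p = 0.0629) and 44.79 and 25.48 CPM in Pole4+/+, where it was called lower (-0.83, adjusted p = 0.0178). In Pole4+/+ 18 of the 48 were higher and 1 lower, against 2.23% and 2.37% of all genes, with a median of 0.59, Ccnb2 among them (0.74, adjusted p = 0.00341) and Ccna2 (0.76, adjusted p = 0.0481). Without Pole4+/+ Trp53-/- replicate 1 there were 46 higher and 1 lower, against 8.58% and 8.34% of all genes, and without any 1 other library of that comparison from 2 to 11 called. Fibroblast markers moved beside both lists and the 10 genes: their sum was 24900 to 30900 CPM in Pole4-/- Trp53+/+ libraries and 13700 to 16500 CPM in Pole4-/- Trp53-/- libraries, with 5 of 10 lower and 1 higher, while 2 of 3 tested epithelial and 3 of 5 tested neuronal markers were higher. Skeletal muscle markers summed to 52.9 to 69.8 CPM with and 24.9 to 36.4 CPM without Trp53 in Pole4-/-, and to 44.1 to 73 and 20.6 to 29.4 CPM in Pole4+/+. Most of them went against their sum: of 8 tested, 5 had positive log2 fold changes in Pole4-/- and 6 in Pole4+/+, with 1 called lower in each. All 10 macrophage markers had positive log2 fold changes in Pole4-/- (median 0.80) and negative ones in Pole4+/+ (median -0.82), with none called in either. Their interaction had a median of 1.72, again with none called. The part of these markers in the results was not tested.

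**Figure D4:**
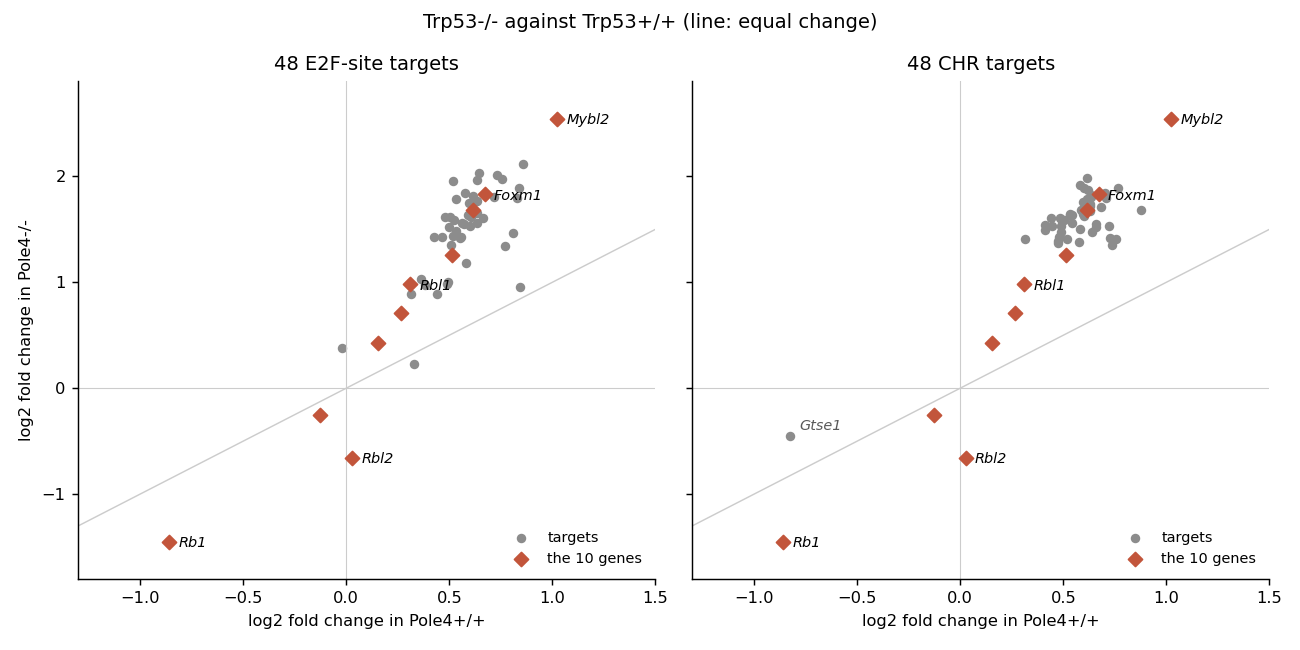
The log2 fold change on Trp53 loss in Pole4+/+ (horizontal) and Pole4-/- (vertical) for the 48 E2F-site genes (left) and the 48 CHR genes (right), in grey, with the 10 pocket protein, MuvB, Mybl2 and Foxm1 genes as diamonds and a line of equal change. Target medians are 1.57 and 1.61 on the vertical axis and 0.58 and 0.59 on the horizontal one; Rb1, Rbl2 and Lin37 lie below 0 in Pole4-/-, Lin37 not called at -0.26, as does Gtse1.

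The same lists were read for Pole4 loss in Trp53+/+ cells, a count added after the data had been seen. Of the E2F-site genes 28 were lower and of the CHR genes 42, against 2.7% of all genes, with medians of -0.85 and -0.83 (all genes: 0.01) and none higher. With log2 Xist as a covariate edgeR called 0 in each list and 0% of all genes, while the medians were -0.80 and -0.80. Without 1 library, the counts ran from 0 to 35 and from 1 to 46. In Trp53-/- cells no gene of either list was called for Pole4 loss by edgeR, with medians of 0.15 and 0.23 and 42 and 45 genes positive. In Trp53+/- cells none was called either, with medians of -0.21 and -0.26 and 2 and 1 genes positive.

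The genes whose levels were most like those of a member over the 18 libraries were found by the root mean square difference of log2 CPM, each gene centred on its own mean, among 15709 candidates. Nearest to Mybl2 were Hist1h1b (0.183), Exo1 (0.216), Cdc6 (0.233), BC030867 (0.236) and Mcm5 (0.239), where the median over all genes was 0.969, and Foxm1 came 23rd at 0.279. Nearest to Foxm1 were Mcm3 (0.0888), Mcm5 (0.093), Ccna2 (0.103), Cep55 (0.109) and Plk1 (0.118), against a median of 0.743. Rbl1 stood nearest to Rad21 (0.0767), Terf1 (0.077), Rtel1 (0.0771), Cbx5 (0.0772) and Xpo1 (0.0801), with Rbbp4 and Lin54 at ranks 133 and 200. Rbl2 stood nearest to Clip3 (0.09), 1110008P14Rik (0.097), Ift46 (0.0982), Pik3r2 (0.102) and Sox4 (0.106). The measure shares libraries and depth across genes and is a description.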

How the data were processed

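RNA of 18 MEF libraries (6 genotypes, 3 each) was made into cDNA with a NuGEN Ovation kit and sequenced as paired ends on a HiSeq. After trimming with Trim Galore and alignment by STAR 2.5.2 (GRCm38), the authors deposited RSEM 1.3.0 expected counts per gene, of which 6.14% were not whole; per the file headers these are not normalized. Their own DESeq2 results were not used.

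Counts were rounded, filtered with filterByExpr (15710 genes) and fitted by edgeR 4.0.16 (R 4.3.3) with TMM factors and a coefficient for each genotype, which left 12 residual degrees of freedom over the 18 libraries; F-tests were quasi-likelihood and robust, with Benjamini-Hochberg adjustment over all genes tested, with calls at an adjusted p under 0.05. SE is the log2 fold change over the square root of F. With 3 libraries against 3, an exact permutation test cannot go below 0.1 and was not used. Symbols, positions and exons are those of GENCODE M21, which matched 51633 of 51912 rows. Promoters were searched in Python 3.11.15.

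The 10 genes and all lists were chosen with earlier results of these data known. All 10 are named, as may be the genes of the short lists. Of the target lists the 3 highest and 3 lowest in the Pole4-/- comparison of Trp53-/- with Trp53+/+ are named (1 is not reported here), and for likeness the 5 nearest genes to Mybl2, Foxm1, Rbl1 and Rbl2.

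Alternatives were DESeq2 1.42.0, voom with quality weights (limma 3.58.1), 2 other scalings, 2 other filters, only the libraries compared, the replicate number as a block, log2 Xist as a covariate, an adjusted p under 0.01 and each library left out. The fit was tested on simulated data. Sequences of proteins were not used here.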

Additional observations from a re-analysis of the deposited data

Results flagged for a closer look

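For 9 of the 96 listed target genes the effect of Trp53 loss differed between Pole4-/- and Pole4+/+ cells by edgeR's interaction test, where 0.331% of all genes did, and each was larger in Pole4-/-. Among the E2F-site genes these were Pola1 and Brca1. Pola1, the catalytic subunit of DNA polymerase alpha, had an interaction of 1.16 on the log2 scale (1.75 in Pole4-/- and 0.60 in Pole4+/+, adjusted p = 0.0362). Brca1, of homologous recombination, had 0.88 (1.43 and 0.55, adjusted p = 0.0313). Of the CHR genes, Bub1b, of the spindle checkpoint, had an interaction of 1.06 (1.69 and 0.63, adjusted p = 0.0313). At adjusted p = 0.0486 each, Sgo1 had 1.37, Ect2 1.29, Top2a 1.10, Kif14 1.09, Kif11 1.05 and Nusap1 0.89. In Pole4+/+ these 6 genes had log2 fold changes from 0.45 to 0.62 in the fit with all libraries. Without the library that stood apart, Pole4+/+ Trp53-/- replicate 1, all 9 interactions were still called, from 0.79 for Brca1 to 1.21 for Sgo1 (edgeR adjusted p from 0.0217 to 0.0361), where 1.07% of all genes were. They were lost in other fits, which were added after the data had been seen. With log2 Xist as a covariate 0 of the 9 and 0% of all genes were called (0.88 to 1.32, adjusted p from 0.0723 to 0.0816), and sex was not balanced: the Pole4+/+ libraries compared were all female, while Pole4-/- Trp53+/+ had 1 and Pole4-/- Trp53-/- 2 female libraries of 3. Library totals alone, only the libraries compared and an adjusted p under 0.01 gave 0 calls as well, and the 6 other settings called all 9. Of the 12 fits that left out 1 library, 4 called all 9, those without Pole4+/+ Trp53-/- replicate 1, 2 or 3 or Pole4+/+ Trp53+/+ replicate 3. Without Pole4-/- Trp53+/+ replicate 1 there was 1 call, and without any 1 of the 7 other libraries there were 0 (adjusted p up to 0.137). The fitted values ran from 0.77 to 1.43 over the settings and from 0.79 to 1.55 over the omissions.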

How the results depend on the processing

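On Trp53 loss in Pole4-/-, 8 of the 10 genes, 47 E2F-site and 47 CHR genes were called, and the 10 other settings gave 8 to 9, 45 to 48 and 47 to 48; with 1 library left out the counts were 8, 46 to 47 and 47. The counts for Pole4 loss in Trp53+/- and Trp53-/- cells stayed at 0 in every setting and omission. The other counts moved. In Pole4+/+ the 1 call of Trp53 loss became 4 with DESeq2, 0 with library totals alone, 2 with upper-quartile factors, 2 with a mean of at least 50 counts, 7 with voom and 0 with only the libraries compared, and 1 to 7 with a library left out. Its 8 E2F-site calls became, in that order, 24, 0, 14, 16, 47 and 0, with 1 at an adjusted p under 0.01 and 1 to 46 with a library left out. Its 19 CHR calls became 32 with DESeq2, 4 with library totals, 45 with voom, 0 with only the libraries compared and 4 at an adjusted p under 0.01, and 2 to 47 with a library left out. The interaction, with 0 calls, gave 8 with DESeq2, 1 with upper-quartile factors, 2 with no filter, 2 with a mean of at least 50 counts and 8 with voom, and 0 to 8 with a library left out. For the heterozygotes in Pole4-/- the 1 call became 5 with DESeq2, 6 with library totals, 2 with upper quartiles, 3 with no filter, 2 with a mean of at least 50, 7 with voom and 6 with only the libraries compared (0 to 2 with a library left out), and in Pole4+/+ voom gave 1 (0 to 0). From heterozygous to null in Pole4-/- the 7 calls became 3 with library totals, 4 with no filter and 4 at an adjusted p under 0.01 (4 to 7), and the 0 in Pole4+/+ became 1 with DESeq2 and 6 with voom (0 to 6). For Pole4 loss in Trp53+/+ the 3 calls became 6 with DESeq2, 6 with library totals, 8 with voom, 8 with only the libraries compared, and 0 both with log2 Xist and at an adjusted p under 0.01 (0 to 5). The 28 E2F-site calls there became 44 with library totals, 45 with voom, 0 with log2 Xist and 0 at an adjusted p under 0.01 (0 to 35), and the 42 CHR calls 0 with log2 Xist and 1 at an adjusted p under 0.01 (1 to 46). The share of all genes called moved beside them. For Trp53 loss in Pole4+/+ it was 8.35% with DESeq2 and 18.9% with voom, against 4.6% in the main fit. For Pole4 loss in Trp53+/+ it was 10.3% and 33.5%, against 3.98%, and 0% with log2 Xist. For the interaction it was 11.4% with DESeq2 and 7.59% with voom. It was 1.96% with upper quartiles, 1.14% with no filter and 4.23% with a mean of at least 50. Shares in the remaining fits are not listed here. The cause of these moves was not tested.

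Signs turned for values that were not called. Rbl2 on Trp53 loss in Pole4+/+ was -0.14 with voom and -0.23 to 0.12 with a library left out. Lin37 was 0.17 in heterozygous Pole4-/- cells and -0.13 on Pole4 loss in Trp53+/+ with library totals, and ran from -0.15 to 0.042 and from -0.0014 to 0.20 with a library left out; its interaction ran from -0.24 to 0.019. Lin52 on Pole4 loss in Trp53+/+ was 0.039 with log2 Xist, and -0.23 to 0.10 with a library left out, and -0.083 to 0.24 in heterozygous Pole4-/- cells. Over the 62 single-gene values reported, leaving out 1 library kept direction and call in 371 of 432 fits, and the other settings in 513 of 620.

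Replicate numbers were not taken as pairs in the main fit. Deviations of same-numbered libraries correlated at a median of 0.10 (-0.26 to 0.59), and those of libraries with other numbers at -0.06 (-0.49 to 0.40). Of the 18 libraries, 13 correlated best with their own number. Whether the number marks a shared batch was not tested. With the number as a replicate block the interaction gave 2 calls, where 3.49% of all genes were called. The E2F-site genes on Trp53 loss in Pole4+/+ gave 5 calls in that fit. Its counts of the 10 genes were 8 and 1 on Trp53 loss in Pole4-/- and Pole4+/+ and 3 on Pole4 loss in Trp53+/+. Lin37 and Lin52 rest on the fewest counts of the 10 genes, 20 to 207 a library.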
